A study of Mus musculus with 4 samples.

Results

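Genes of the primitive (embryonic) red cell lineage were examined by name in RNA sequencing of mouse hindlimb bud cells. The 32 genes listed encode embryonic globins, red cell membrane and blood group proteins, and the regulators of red cell formation, and 31 of them were read from the count table of 25239 gene symbols. Ahsp, encoding the chaperone of alpha globin, was not analysed here. The genes were chosen by name with earlier results of these data known, to compare anterior with central libraries and the second anterior library with the first. Values of the members in those 2 contrasts are therefore given as a description, and nothing is supported with them.

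The libraries came from FVB mouse embryos at embryonic day 11.5, labelled wild-type in genotype. All of them carried one reporter transgene, H11 hsp68-hZRS(404G>A)-mCherry. In it, a 404G>A version of the human ZRS, which in its native place controls Shh in the limb from far away, acts through the hsp68 minimal promoter on mCherry, a red fluorescent protein. Dissection by domain and sorting of single cells gave anterior cells positive for mCherry (2 libraries) and central cells negative for it (2 libraries). Dissected position and reporter state differ together between these groups and cannot be told apart. The labels do not say how many embryos were pooled, or whether libraries with the same replicate number came from the same embryos, so p-values measure only the spread between these samples, which may be technical.

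Primitive red cells arise in the yolk sac and circulate as nucleated cells while the limb buds grow out. They are the blood cells that carry the embryonic globins, and they reach the limb bud through its vessels. Their programme is driven by the factors GATA1, KLF1 and TAL1 and by erythropoietin signalling. It fills the cell with haemoglobin and builds a membrane skeleton of spectrin and ankyrin anchored to the anion exchanger band 3.

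Library totals ranged from 30080925 to 33257383 counts. Levels are CPM, in which TMM factors from edgeR bring the libraries to one scale. The hindlimb markers Pitx1 and Tbx4 and the limb mesenchyme marker Prrx1 were abundant in every library, Pitx1 at 434 and 450 CPM in the anterior and 483 and 430 CPM in the central libraries. A gene is described as called where edgeR's quasi-likelihood test over all 14610 tested genes gave a Benjamini-Hochberg adjusted p-value under 0.05. Those 3 markers were not called, but the other genes of the 6 hindlimb mesenchyme markers were. Prrx2 and Twist1 were called higher in the anterior cells (log2 fold change 1.91 and 0.83) and Hoxc10 lower (-0.76). Over all tested genes, 10.7% were called higher and 12.3% lower.

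Most of the erythroid genes were higher in the anterior cells, and log2 fold changes ranged from -0.51 for Aqp1 to 10.62 for Hbb-bh1. All 31 passed the filter on low counts, and 28 were called higher and 0 lower, beside 10.7% of all tested genes called higher (22.9% called in either direction). Since the genes were chosen on this contrast, nothing is read from that count. The median log2 fold change of the 31 genes was 4.48 (4.29 with Icam4 and Cldn13, whose central libraries held no counts, set at their lower bounds), beside -0.00866 for all tested genes. With those 2 genes at their bounds, a log2 fold change of at least 5 was found for 11 genes, of 2 to 5 for 12 genes, and of under 2 for 8 genes. Both anterior libraries lay above both central libraries for 29 genes, beside 30.8% of all tested genes. The summed level of the 31 genes was 4119 and 9547 CPM in anterior replicates 1 and 2, and 591 and 621 CPM in the central libraries. In bulk RNA, more cells of a type and more RNA per cell cannot be told apart.

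**Figure D1:**
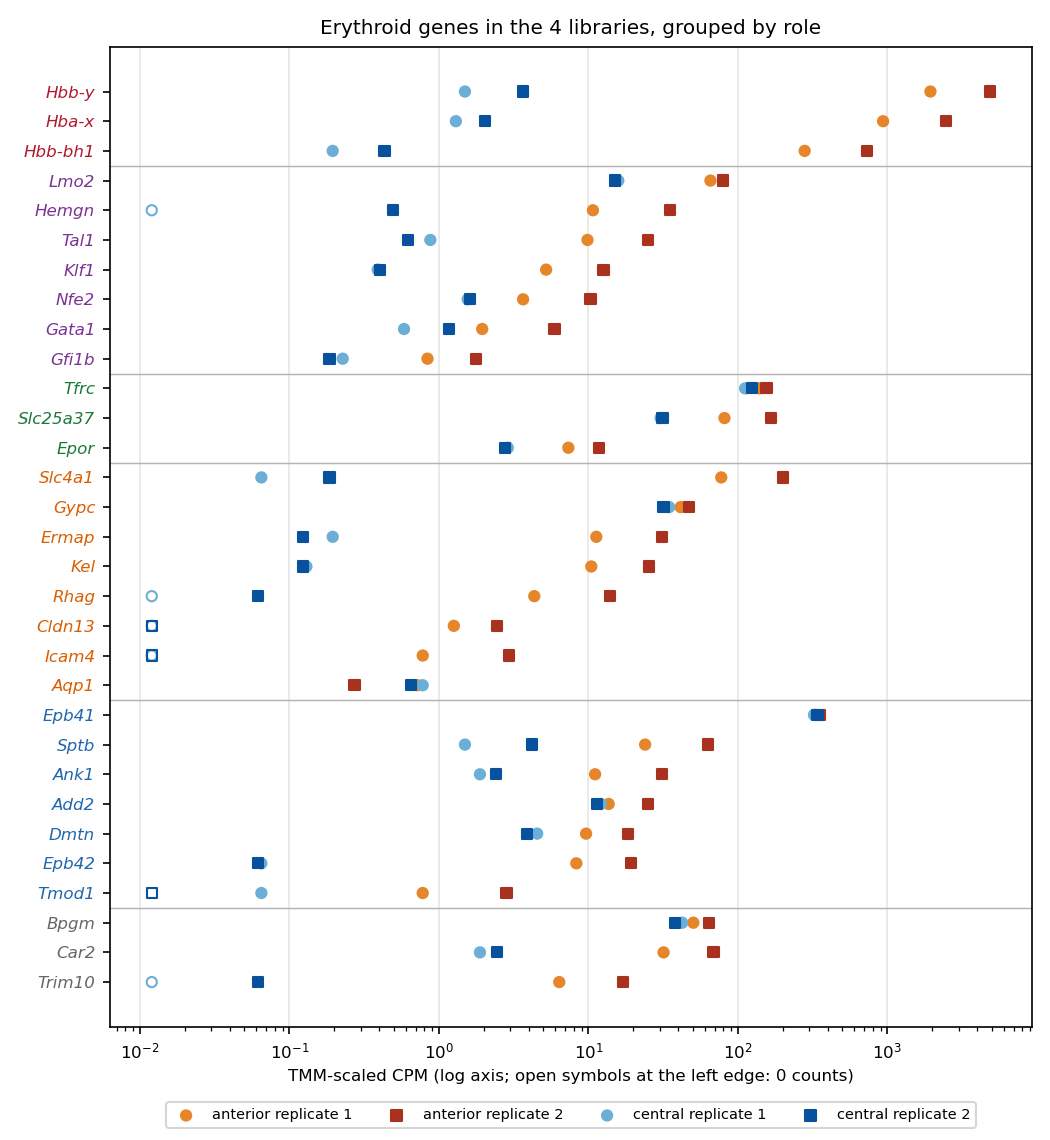
TMM-scaled CPM (x axis, log scale) of the 31 erythroid genes (y axis, grouped by role, names coloured by role) in each of the 4 libraries; open symbols at the left edge mark 0 counts. The embryonic globins sit between 280 and 4867 CPM in the anterior libraries and at or under 3.65 CPM in the central ones. The groups overlap for Epb41 and Aqp1, and Tfrc and Gypc are higher in the anterior libraries by small amounts.

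The globins made up most of the summed erythroid level in the anterior libraries, at 3158 of 4119 and 8055 of 9547 CPM, but little of it in the central ones, at 2.99 of 591 and 6.12 of 621 CPM. Hbb-y, the embryonic epsilon-type beta globin (chr7:103851749-103853216 on mm10, minus strand, GENCODE M21), measured 1942 and 4867 CPM in anterior replicates 1 and 2, and 1.49 and 3.65 CPM in central replicates 1 and 2. Hba-x, the embryonic zeta-type alpha globin (chr11:32276400-32278116, plus strand), measured 937 and 2457 CPM in the anterior and 1.30 and 2.04 CPM in the central libraries. Hbb-bh1, a second embryonic beta-type globin (chr7:103841637-103843164, minus strand), measured 280 and 732 CPM in the anterior and 0.195 and 0.433 CPM in the central libraries. For each of these genes the lower anterior library was far above the higher central one, and the second anterior library was well above the first. The fitted log2 fold changes were 10.36 ± 0.57, 9.98 ± 0.55 and 10.62 ± 0.65 (SE, n = 2 against 2).

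Per kb of exon, Hbb-y had the highest level of the erythroid genes in both anterior libraries, at 3068 and 7688 CPM per kb. Hba-x followed at 999 and 2619 CPM per kb, and Hbb-bh1 at 456 and 1194 CPM per kb. The order was the same within both anterior libraries, but across them the values of Hba-x and Hbb-bh1 overlapped, while those of Hbb-y lay above both. The next members by the mean of the 2 anterior libraries were far lower, Lmo2 at 30.3 and 36.8 CPM per kb and Slc4a1 at 15.8 and 41.2 CPM per kb. In replicate 1 alone, Tfrc, Epb41 and Gypc stood above Slc4a1, at 22.5, 20.8 and 17.8 CPM per kb. In the central libraries the order was another one, led by Epb41 at 20.3 and 21.4 CPM per kb.

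The proportions among the globins varied far less than their level. Hbb-bh1 made up 12.6% of the embryonic beta-type counts in anterior replicate 1 (95% exact Clopper-Pearson interval 12.3% to 12.9%) and 13.1% in replicate 2 (12.8% to 13.3%). In the central libraries, where these genes had only 52 and 132 counts in all, the share was 11.5% (2.45% to 30.2%) and 10.6% (4.37% to 20.6%). The central intervals include both anterior shares. Hba-x made up 29.7% (29.3% to 30%) and 30.5% (30.2% to 30.8%) of the counts of the 3 embryonic globins in the anterior libraries. It made up 43.5% (28.9% to 58.9%) of them in central replicate 1 and 33.3% (24.2% to 43.5%) in central replicate 2, and both intervals include the anterior shares. Of the counts from 1 to 10, 72.8% to 75.6% were even in each library, so intervals were computed on halved counts, as if each fragment had been counted by both its reads. These intervals cover counting error only.

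Adult globins could not be set beside the embryonic ones. Hba-a1, Hba-a2, Hbb-bs, Hbb-bt, Hbb-b1, Hbb-b2 and Hbb-bh2 were listed at 0 in all 4 libraries. In GENCODE M21, 63.3% of the 100-base windows of Hba-a1 transcripts, 79.5% of those of Hba-a2, 49.7% of those of Hbb-bs and 54.8% of those of Hbb-bt also occur in another globin gene. None of the windows of Hba-x, Hbb-y, Hbb-bh1 or Hbb-bh2 does. Why the adult genes and Hbb-bh2 were listed at 0 was not tested, and no adult globin level is drawn from those values. The minor alpha-type gene Hbq1b, which also shares 17.0% of its windows, had anterior counts of 26 and 53 and central counts of 0 and 0. Against a floor of 3 counts per library it was at least 13.6-fold higher in the anterior cells (edgeR adjusted p-value 0.00382). Among the globins, the embryonic ones are thus the only basis here for the word primitive.

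The red cell transcription regulators were called higher in 7 of 7 genes, beside 10.7% of all tested genes, but by unequal amounts. They too were chosen on this contrast, so nothing is read from that count. Klf1, encoding the factor that activates globin and many membrane genes, measured 5.22 and 12.6 CPM in the anterior and 0.390 and 0.402 CPM in the central libraries (log2 fold change 4.48 ± 0.49 SE). Tal1, a partner of GATA1 in DNA-bound complexes, measured 9.86 and 25.0 CPM against 0.877 and 0.618 CPM (4.54 ± 0.48 SE). For both, the central values were close together and an order of magnitude under the lower anterior value.

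Hemgn, a nuclear protein of erythroid precursors, measured 10.7 and 35.0 CPM in the anterior cells and 0 and 0.494 CPM in the central ones. Gata1, the master regulator of the lineage, measured 1.95 and 5.93 CPM against 0.584 and 1.17 CPM (log2 fold change 2.15 ± 0.58 SE). It stood below Klf1, Tal1 and Lmo2 within each anterior library, but above Klf1 in the central ones. Nfe2, the globin-locus factor, had 3.66 and 10.3 CPM against 1.56 and 1.61 CPM (2.14 ± 0.46 SE). Gfi1b, a repressor required in erythroid and megakaryocyte cells, had only 28 and 52 counts in the anterior and 7 and 6 in the central libraries. Without anterior replicate 2 the log2 fold changes of Gata1 and Nfe2 fell to 1.15 and 1.21, and Gata1, Nfe2 and Gfi1b were no longer called.

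Lmo2, the LIM-only bridge of the TAL1 and GATA1 complex, differed from the other regulators. It measured 65.5 and 79.6 CPM in the anterior and 15.8 and 15.0 CPM in the central libraries (log2 fold change 2.23 ± 0.12 SE). It was the most abundant regulator in every library, and its anterior libraries differed by only 1.21-fold (95% counting interval 1.12 to 1.32).

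Promoter windows were read for 21 of the 31 genes from RefSeq on GRCm38.p6, the same assembly as mm10. Windows of 8 genes with various roles are shown, chosen after their matches were seen, so that the sequences that GATA1 and KLF1 are known to recognise can be read in place. The windows run 5′ to 3′ on the gene's own strand, end at or before the first annotated exon, and have GATA matches (AGATAA or TGATAA, both strands) and CACCC matches (both strands) in capitals. The gene with the highest globin level (Hbb-y, chr7:103853217-103853457, minus strand) is followed by the E3 ligase family gene Trim10 (chr17:36869324-36869573, plus), the Rh-associated glycoprotein gene Rhag (chr17:40810899-40811125, plus), the Scianna blood group gene Ermap (chr4:119190012-119190245, minus), the regulator Klf1 (chr8:84901732-84901927, plus) and the erythropoietin receptor gene Epor (chr9:21963577-21963826, minus). The first 6 hold both motifs. Sptb (chr12:76710548-76710797, minus) and Aqp1 (chr6:55336049-55336298, plus) hold CACCC but no GATA match and are given for comparison.
Hbb-y: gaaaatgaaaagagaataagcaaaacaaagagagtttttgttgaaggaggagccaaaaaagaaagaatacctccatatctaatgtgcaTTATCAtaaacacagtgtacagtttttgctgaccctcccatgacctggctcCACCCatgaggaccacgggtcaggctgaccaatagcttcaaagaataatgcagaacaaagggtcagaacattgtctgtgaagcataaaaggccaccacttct
Trim10: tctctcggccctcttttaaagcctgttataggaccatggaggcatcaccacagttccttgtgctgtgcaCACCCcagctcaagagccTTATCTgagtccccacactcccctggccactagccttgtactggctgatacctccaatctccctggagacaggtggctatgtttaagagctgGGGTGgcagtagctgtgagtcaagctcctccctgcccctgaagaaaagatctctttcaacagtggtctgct
Rhag: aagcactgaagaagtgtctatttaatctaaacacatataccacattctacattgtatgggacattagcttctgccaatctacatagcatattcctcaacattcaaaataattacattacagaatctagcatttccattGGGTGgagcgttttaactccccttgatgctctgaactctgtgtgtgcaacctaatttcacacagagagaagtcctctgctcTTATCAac
Ermap: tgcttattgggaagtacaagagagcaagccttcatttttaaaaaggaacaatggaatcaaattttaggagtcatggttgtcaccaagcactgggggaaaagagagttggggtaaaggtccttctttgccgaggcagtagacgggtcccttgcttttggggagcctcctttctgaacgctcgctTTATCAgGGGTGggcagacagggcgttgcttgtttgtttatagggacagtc
Klf1: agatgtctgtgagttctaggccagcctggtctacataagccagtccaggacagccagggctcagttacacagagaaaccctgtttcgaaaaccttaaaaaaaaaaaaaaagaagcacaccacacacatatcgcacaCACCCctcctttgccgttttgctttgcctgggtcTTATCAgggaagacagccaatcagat
Epor: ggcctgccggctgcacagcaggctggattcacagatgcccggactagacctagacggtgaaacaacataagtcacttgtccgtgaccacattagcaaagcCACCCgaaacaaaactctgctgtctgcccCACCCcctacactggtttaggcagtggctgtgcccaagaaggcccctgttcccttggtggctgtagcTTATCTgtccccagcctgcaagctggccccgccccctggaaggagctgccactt
Sptb: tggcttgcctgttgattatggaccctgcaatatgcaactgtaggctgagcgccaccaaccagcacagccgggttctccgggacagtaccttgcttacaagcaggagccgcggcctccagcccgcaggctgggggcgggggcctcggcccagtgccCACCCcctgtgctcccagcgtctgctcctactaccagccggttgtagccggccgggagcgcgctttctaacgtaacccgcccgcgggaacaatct
Aqp1: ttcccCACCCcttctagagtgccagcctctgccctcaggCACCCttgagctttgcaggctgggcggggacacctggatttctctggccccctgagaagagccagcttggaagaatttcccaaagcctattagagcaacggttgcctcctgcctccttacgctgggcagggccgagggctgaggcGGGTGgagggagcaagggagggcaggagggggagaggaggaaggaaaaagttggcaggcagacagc

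In the 250 bases before the RefSeq start, a GATA match was present in 13 of 21 member promoters (61.9%), beside 17.0% of the promoters of all 27025 genes in the table. A CACCC match was present in 17 of 21 (81.0%), beside 51.3% of all promoters, and both were present in 11 of 21 (52.4%), beside 7.16%. CCAAT was found in 9 of 21 (42.9%, beside 34.5%) and the NF-E2 core TGANTCA in 2 of 21 (9.52%, beside 6.87%). All were searched on both strands, and matches of CACCC and CCAAT can share bases. Add2, Aqp1, Bpgm, Epb41, Gata1, Sptb, Tfrc and Tmod1 had no GATA match, and Epb42 and Hemgn had a GATA match without CACCC. The GATA matches of Hba-x, Hemgn and Icam4 lay outside the exon-free stretch of their windows. A match is a description of letters, and binding was not measured.

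**Figure D2:**
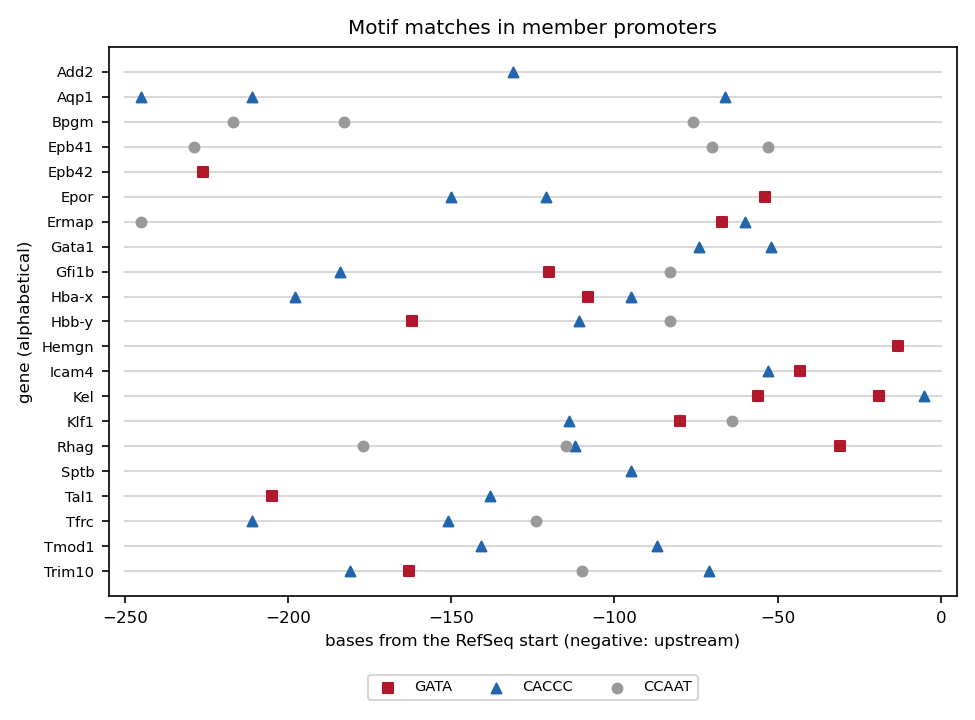
Positions of GATA (squares), CACCC (triangles) and CCAAT (circles) matches in bases from the RefSeq start (x axis) for 21 promoters, in alphabetical order (y axis). Squares occur in 13 rows and triangles in 17.

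Hormone and iron uptake genes were higher by smaller amounts, from central levels that were well above 0. Slc25a37, encoding the mitochondrial iron importer mitoferrin, measured 81.3 and 166 CPM in the anterior and 30.4 and 31.4 CPM in the central libraries (log2 fold change 2.0 ± 0.27 SE). Epor, the erythropoietin receptor, measured 7.35 and 11.8 CPM against 2.89 and 2.78 CPM (1.75 ± 0.28 SE). Tfrc, the transferrin receptor that most dividing cells use, measured 139 and 155 CPM against 112 and 124 CPM (0.32 ± 0.08 SE) and was not called without anterior replicate 2. The anterior and central values of Slc25a37 and Epor were far apart, whereas those of Tfrc were nearly adjacent.

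Among the surface proteins, the markers that red cells share with few other cells were almost absent from the central libraries. Slc4a1, encoding band 3, the anion exchanger to which the skeleton is anchored (chr11:102348824-102366203, minus strand), measured 77.4 and 201 CPM in the anterior libraries. It had 2 and 6 counts, or 0.0649 and 0.185 CPM, in the central ones (log2 fold change 10.06 ± 0.71 SE). Kel, the Kell blood group peptidase, had 349 and 744 counts against 4 and 4, and Ermap had 377 and 913 counts against 6 and 4. Their log2 fold changes were 7.10 ± 0.58 and 7.03 ± 0.63 (SE).

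Rhag, the glycoprotein that the Rh complex needs at the membrane, had 145 and 407 anterior and 0 and 2 central counts, a ratio of 278 with a wide 95% counting interval of 49.5 to 11020. Icam4, the Landsteiner-Wiener blood group adhesion molecule, had 26 and 86 counts against 0 and 0. Cldn13, a claudin of mouse erythroid cells, had 42 and 72 counts against 0 and 0. Both were at least 19.5-fold higher in the anterior cells against the floor of 3 counts per library, and the depth does not bound their ratio from above.

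The other surface genes did not share this pattern. Gypc, glycophorin C, measured 41.4 and 47.2 CPM in the anterior and 34.7 and 31.8 CPM in the central libraries (log2 fold change 0.41 ± 0.10 SE), and was not called without anterior replicate 2. Aqp1, the water channel of red cells and of vessel lining, measured 0.720 and 0.273 CPM against 0.779 and 0.649 CPM. It was the one member with a fitted value below 0 (log2 fold change -0.51 ± 0.64 SE, not called). Its groups overlapped, and it had at most 24 counts in any library.

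The membrane skeleton genes spanned the whole range of differences. Epb42, protein 4.2, which ties band 3 to ankyrin, had 277 and 568 counts in the anterior and 2 and 2 in the central libraries (log2 fold change 7.68 ± 0.61 SE). Sptb, erythroid beta spectrin, measured 23.96 and 63.2 CPM against 1.49 and 4.17 CPM (3.93 ± 0.52 SE). Ank1, erythroid ankyrin, measured 11.1 and 31.0 CPM against 1.88 and 2.41 CPM (3.29 ± 0.45 SE). For these genes each anterior library lay well above each central one.

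Tmod1, which caps the skeleton's actin filaments, had 26 and 83 counts against 2 and 0. Dmtn, the actin bundler dematin, measured 9.65 and 18.3 CPM against 4.55 and 3.89 CPM (log2 fold change 1.73 ± 0.30 SE). Add2, beta adducin, measured 13.7 and 25.1 CPM against 12.1 and 11.4 CPM, and only anterior replicate 2 stood clear of the central libraries (0.72 ± 0.25 SE, not called). Epb41, protein 4.1, which many tissues make, was at 332 and 353 CPM against 323 and 342 CPM (0.04 ± 0.06 SE, not called), and its groups overlapped.

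Of the remaining genes, Trim10, a tripartite motif protein of late red cell precursors, had 213 and 503 counts in the anterior and 0 and 2 in the central libraries. Car2, carbonic anhydrase 2, measured 31.8 and 68.8 CPM against 1.88 and 2.44 CPM (log2 fold change 4.53 ± 0.37 SE). Bpgm, which makes the 2,3-bisphosphoglycerate that tunes oxygen release, measured 50.4 and 64.1 CPM against 42.4 and 37.8 CPM (0.51 ± 0.12 SE) and was not called without anterior replicate 2. The direction was shared, but the level in the central cells set Bpgm apart.

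The second anterior library held more erythroid RNA than the first across most of these genes. The 3 embryonic globins took 0.317% of all counts in anterior replicate 1 and 0.786% in replicate 2. Of the 31 genes, 30 were higher in replicate 2, the exception being Aqp1. Over the 30 genes with at least 20 counts in both anterior libraries, the ratio of replicate 2 to replicate 1 ranged from 1.07 to 3.76 with a median of 2.46, beside a median of 1.0 over all 12740 tested genes with that many counts. The ratio was at least 2 for 21 of the 30, beside 0.777% of all such genes. The genes were chosen partly on this ratio, so it is a description of these libraries.

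The globins and several other members had ratios close together, named here after their values were seen. The ratio was 2.51 for Hbb-y (95% counting interval 2.47 to 2.54), 2.62 for Hba-x (2.57 to 2.67), 2.62 for Hbb-bh1 (2.53 to 2.71) and 2.60 for Slc4a1 (2.44 to 2.78). Sptb at 2.64 (2.34 to 2.97), Tal1 at 2.53 (2.10 to 3.07) and Klf1 at 2.42 (1.86 to 3.16) lay in the same range. Others did not. Hemgn at 3.26 (2.75 to 3.89) lay above the globins, and Car2 at 2.16 (1.94 to 2.40), Slc25a37 at 2.05 (1.91 to 2.19), Lmo2 at 1.21 (1.12 to 1.32), Tfrc at 1.11 (1.05 to 1.18) and Epb41 at 1.07 (1.03 to 1.11) lay below them, each beyond counting error. The intervals of 19 members overlapped the globins' range.

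Of the 9 genes among these 30 with a ratio under 2, all but Cldn13 had a central level of at least 2.78 CPM. Subtracting the central mean from each anterior value, a measure added after the values were seen, gave a ratio of 2.34 for Bpgm in place of 1.27, of 2.59 for Dmtn in place of 1.90, and of 2.69 for Slc25a37 in place of 2.05. Over the 29 genes whose anterior values lay above the central ones, this excess ratio had a median of 2.62, and 16 of them fell between 2 and 3. The subtraction takes the central mean as a level that the anterior cells share, which was not tested. It uses both contrasts by which the genes were chosen and has no share over all genes beside it, so nothing is read from these ratios. Genes with an excess ratio under 2 were Lmo2 at 1.28, Gypc at 1.72, Tfrc at 1.75, Cldn13 at 1.95 and Epor at 1.98. Lmo2 was the lowest although its anterior excess was large, at 50.1 CPM in replicate 1. The 8 above 3 included Gata1 at 4.72, Nfe2 at 4.21 and Add2 at 6.99, for which the excess in replicate 1 was at most 2.08 CPM.

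**Figure D3:**
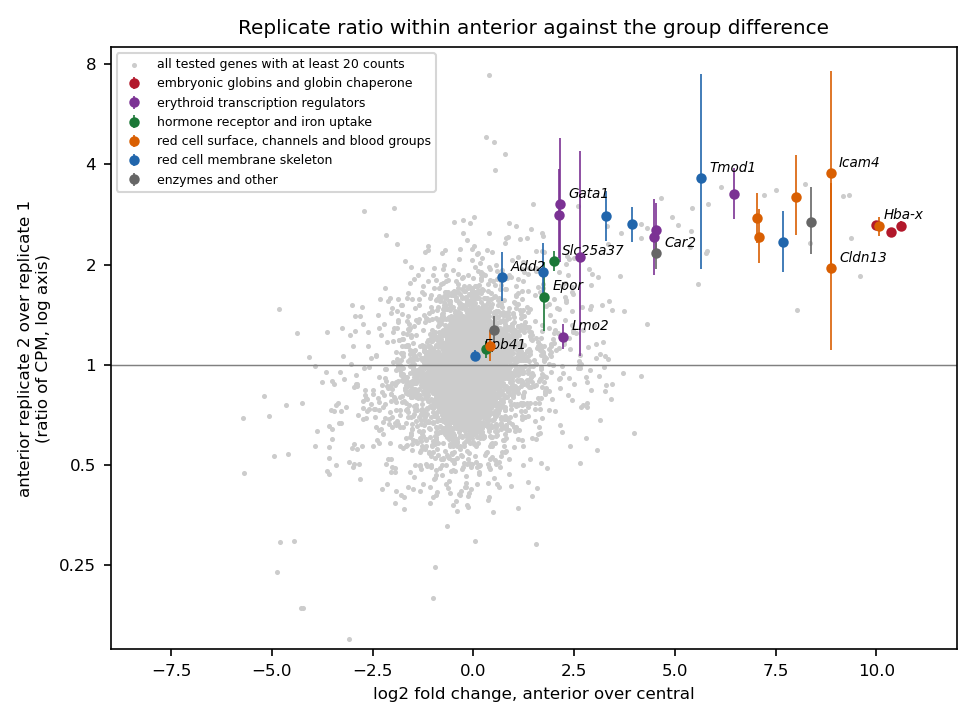
Ratio of anterior replicate 2 to replicate 1 (y axis, log scale, bars 95% counting intervals) against the log2 fold change of anterior over central cells (x axis) for the 30 erythroid genes with at least 20 counts in both anterior libraries (coloured by role) and all other such genes (grey). Icam4 and Cldn13, with no central counts, are drawn at fitted values that depend on the prior count. Of the 30 coloured points, 21 lie at ratios of at least 2, while Lmo2, at 1.21, and Epb41, at 1.07, lie near the grey cloud.

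The central libraries held a trace of the same globin RNA, and this too differed between replicates. The embryonic globins took 0.000303% (95% exact interval 0.000222% to 0.000404%) of the counts of central replicate 1 and 0.000616% (0.000501% to 0.00075%) of those of replicate 2. Slc4a1 stood in nearly the same proportion to them in both populations, at 24.9 counts per 1000 embryonic globin counts in the anterior and 27.6 in the central libraries, the latter from 8 counts. Most other members did not. Klf1 had 1.59 counts per 1000 globin counts in the anterior and 86.2 in the central cells, Tal1 had 3.11 and 162, and Gata1 had 0.6995 and 193. Kel and Ermap stood between, at 3.20 and 27.6 and at 3.78 and 34.5, from only 4 and 4 and 6 and 4 central counts. In the central cells, the counts of the regulators were thus high for the little globin RNA present. Vessel lining and megakaryocytes share several of these regulators with red cells, and their part in the central counts was not tested.

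**Figure D4:**
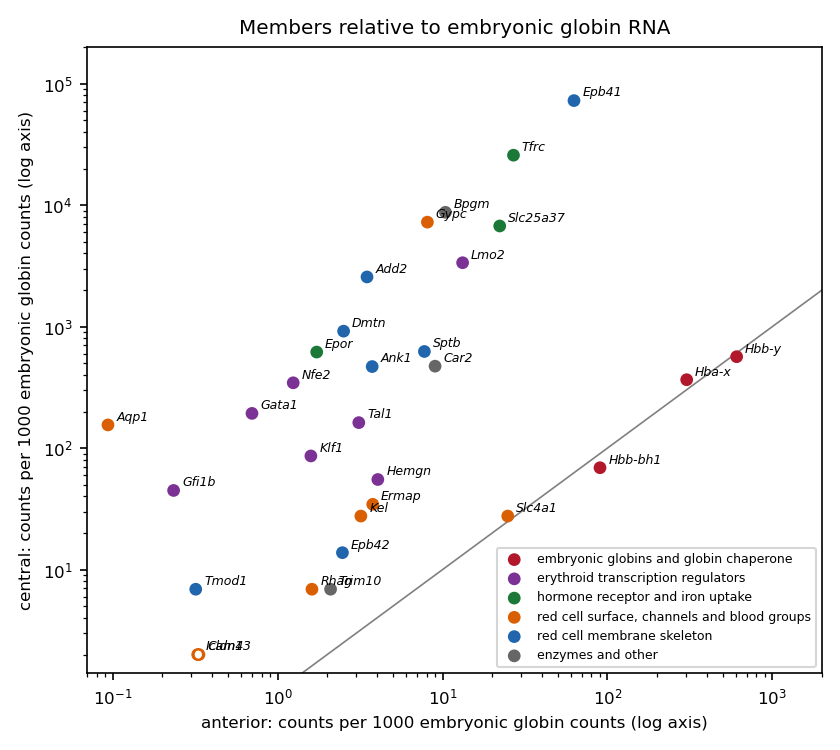
Counts of each erythroid gene per 1000 counts of the 3 embryonic globins, in the central libraries (y axis, log scale) against the anterior libraries (x axis, log scale), each summed over 2 libraries; the line marks equal proportions and open symbols mark 0 central counts. Slc4a1 lies by the line at 24.9 and 27.6, and the regulators lie far above it.

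Further erythroid genes, listed by function, were read from the same fit, in which 10.7% of all tested genes were called higher and 12.3% lower. Of 9 haem synthesis enzymes, 5 were called higher and 0 lower (median log2 fold change 0.56). Alas2, the red cell isoform of the first enzyme, measured 44.4 and 100 CPM in the anterior and 1.85 and 1.61 CPM in the central libraries (edgeR adjusted p-value 4.17e-05, log2 fold change 5.39 ± 0.41 SE), with an anterior replicate ratio of 2.26. The last enzyme, Fech, rose by less, at 45.2 and 78.1 CPM against 30.7 and 28.1 CPM (edgeR adjusted p-value 0.00785, log2 fold change 1.07 ± 0.21 SE). The housekeeping isoform Alas1 measured 31.0 and 30.1 CPM against 27.1 and 27.2 CPM and did not pass the test (edgeR adjusted p-value 0.245).

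Of 18 other red cell membrane genes tested, 8 were called higher and 2 lower (median log2 fold change 0.39). The Rh antigen gene Rhd measured 4.47 and 14.1 CPM in the anterior and 0.292 and 0.433 CPM in the central libraries (edgeR adjusted p-value 0.000877). Its anterior replicate ratio was 3.17. The widely expressed adducin Add3 was lower, at 88.8 and 94.2 CPM against 122 and 118 CPM (edgeR adjusted p-value 0.00486). Also called lower was Slc14a1, with 0 and 8 anterior counts against 72 and 25 central ones (edgeR adjusted p-value 0.0403). Its log2 fold change was -3.53 ± 1.04 (SE).

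The other regulators and cofactors were mixed, with 7 of 22 called higher and 3 lower (median log2 fold change 0.17). Zfpm1, the GATA1 cofactor FOG1, was at 13.9 and 23.6 CPM against 10.5 and 11.4 CPM (edgeR adjusted p-value 0.0420, log2 fold change 0.77 ± 0.23 SE). Cbfa2t3, a corepressor of the TAL1 complex, was at 30.4 and 26.7 CPM against 12.01 and 12.5 CPM (edgeR adjusted p-value 0.000216, log2 fold change 1.22 ± 0.12 SE), with the first anterior library the higher. Bcl11a, a repressor of embryonic globins, was at 252 and 214 CPM against 167 and 149 CPM (edgeR adjusted p-value 0.00295). Sox6, its partner in definitive red cells, was lower, at 16.7 and 11.9 CPM against 44.6 and 34.6 CPM (edgeR adjusted p-value 0.000609, log2 fold change -1.47 ± 0.18 SE). Which cells the Bcl11a and Sox6 RNA came from was not tested, and the central libraries held little embryonic globin RNA (2.99 and 6.12 CPM). None of Cbfa2t3, Bcl11a and Sox6 was higher in the second anterior library than in the first. Without anterior replicate 2, 5 of the 22 genes were called.

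Iron handling genes were called higher in 6 of 11 and lower in 0 (3 higher without anterior replicate 2). Steap3, the endosomal iron reductase of red cell precursors, measured 9.53 and 16.6 CPM against 2.01 and 1.42 CPM (edgeR adjusted p-value 0.000366, log2 fold change 2.92 ± 0.32 SE). Among red cell maturation and metabolism genes, 7 of 16 were called higher and 0 lower (3 higher without anterior replicate 2). Pklr, the red cell and liver pyruvate kinase, measured 2.998 and 10.02 CPM against 0.0649 and 0 CPM (edgeR adjusted p-value 0.000708). Bnip3l, which clears mitochondria in maturing red cells, measured 146 and 149 CPM against 146 and 138 CPM and did not pass the test (edgeR adjusted p-value 0.591).

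Markers of other cell types were read from the same libraries. The 14 macrophage and myeloid markers summed to 45.8 to 52.5 CPM in the anterior and 21.4 to 21.8 CPM in the central libraries. Of 13 tested, 7 were called higher and 0 lower, beside 10.7% and 12.3% of all tested genes. Mrc1 measured 8.99 and 11.9 CPM against 1.36 and 1.24 CPM (edgeR adjusted p-value 9.56e-05), and Csf1r 8.45 and 5.49 CPM against 2.21 and 2.29 CPM (0.00468), whereas the pan-leukocyte gene Ptprc was not called (0.871). Their median anterior replicate ratio was 0.758. None of these markers was at 0 in both libraries of a group.

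Megakaryocytes share Gata1, Tal1, Nfe2 and Gfi1b with red cells. Megakaryocyte and platelet markers summed to 7.08 to 8.90 CPM in the anterior and 10.8 to 16.1 CPM in the central libraries. Of 7 tested, 0 were called higher and 1 lower (Itgb3, at 0.360 and 0.341 CPM against 2.21 and 4.66 CPM, edgeR adjusted p-value 0.00240). Pf4 measured 1.08 and 1.09 CPM against 1.43 and 1.55 CPM. Among them, Gp6, Treml1 and Clec1b had 0 counts in both anterior libraries, and Selp had 0 in all 4. With 10.7% of all tested genes called higher and 12.3% lower, these counts are near the background, and the part of megakaryocyte RNA in the values of Gata1 and Nfe2 was not tested.

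Vessel lining shares Tal1, Lmo2 and Aqp1 with red cells. Endothelial markers summed to 18.35 to 23.5 CPM in the anterior and 50 to 55.5 CPM in the central libraries. Of 12 tested, 0 were called higher and 7 lower, beside 10.7% and 12.3% of all tested genes. Cdh5 measured 0.660 and 1.91 CPM against 6.72 and 10.01 CPM (edgeR adjusted p-value 0.00306) and Kdr 0.780 and 0.955 CPM against 6.30 and 8.09 CPM (0.000210). Of the 7 blood progenitor markers tested, 0 were called higher and 4 lower, beside the same shares of all tested genes. Cd34 was among those called lower (edgeR adjusted p-value 0.000675). The most abundant, Mecom, was at 552 and 478 CPM against 533 and 535 CPM (edgeR adjusted p-value 0.683). No endothelial or progenitor marker was at 0 in both libraries of a group. What part macrophage, vessel or progenitor RNA has in the erythroid values was not tested.

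**Figure D5:**
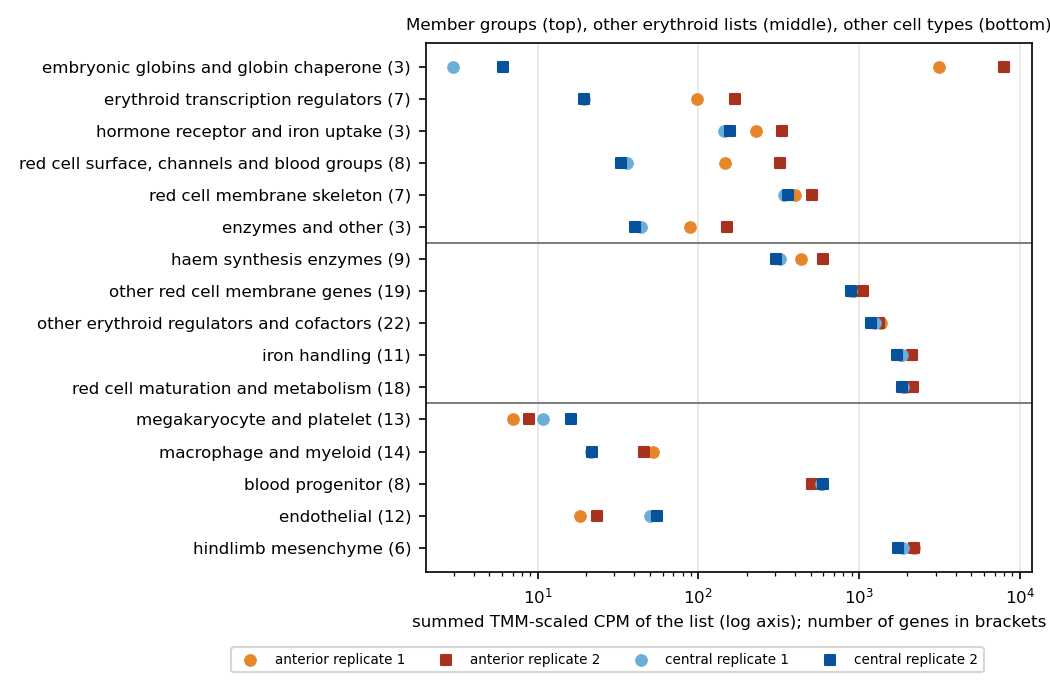
Summed TMM-scaled CPM (x axis, log scale) of the gene lists (y axis, number of genes in brackets) in the 4 libraries. Shown are the erythroid genes by role (top), further erythroid lists without the other globins (middle) and markers of other cell types (bottom). The embryonic globins separate the populations most, at 3158 and 8055 CPM against 2.99 and 6.12 CPM, and the endothelial list lies the other way, at 18.35 to 23.5 CPM against 50 to 55.5 CPM.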

How the data were processed

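RNA of sorted anterior and central hindlimb cells was sequenced in 4 libraries. The authors deposited whole-number counts per gene symbol, not normalized. Per the submitters' processing notes, the build was mm10 and the tools included STAR 2.7.9a, HTSeq and DESeq2, and the annotation and strand setting are not given in the sources used here, so overlapping and antisense genes are uncertain. Columns were matched to titles by domain and replicate number.

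The test used edgeR 4.0.16 (R 4.3.3): the default of filterByExpr, TMM scaling, and the quasi-likelihood F test of anterior against central without a block (2 residual degrees of freedom), with Benjamini-Hochberg adjustment over 14610 genes at a threshold of 0.05. The SE of a log2 fold change is its size divided by the square root of F. The fit was tested on simulated data. Exon lengths came from GENCODE M21 and promoters from RefSeq GRCm38.p6. Intervals are exact at 95% and hold for counting error alone, because molecules were not tagged before amplification as far as the labels say. The floor, 3 counts, equals 0.0899 to 0.102 CPM.

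The members and lists (6 roles, 11 further lists of 142 genes) were chosen with earlier results of these data known. Named were all members, called or most abundant genes of the further lists, and genes outside the lists that resembled the globins. Pitx1, Tbx4, Alas1, Bnip3l, Pf4 and Ptprc were named after their values were seen. Alternatives were other scalings, the DESeq2 1.42.0 Wald test, limma-voom (limma 3.58.1), other filters, a replicate block, halved counts and leaving out each library. Some results are not reported here.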

Additional observations from a re-analysis of the deposited data

How the results depend on the processing

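The count of erythroid genes called between anterior and central cells was 28 of 31 and ranged from 24 (limma-voom, and a mean count of at least 50, which left 26 tested) to 29 over the scalings, tests, filters and halved counts, with 0 called lower in each. With limma-voom the calls of Gata1, Nfe2, Hemgn and Slc4a1 were lost, and the cause was not tested. Across the fits leaving out each library, 22 to 29 of these genes were called, and 2009 to 3697 of all genes. In those fits, which assume that the lone library varies like the others, the lowest and highest counts called were 5 and 11 for other regulators, 3 and 6 for iron handling, 3 and 10 for maturation and metabolism, 1 and 3 for megakaryocyte, and 2 and 4 for progenitor genes. The lowest count was without anterior replicate 2 for all genes, the erythroid genes, other regulators, iron handling and maturation. Megakaryocyte calls were 2 without anterior replicate 2 and 3 without central replicate 1, and progenitor calls 2 without anterior replicate 2 and 2 without central replicate 2. Megakaryocyte calls (1) became 2 with the DESeq2 Wald test and 3 with no filter. Progenitor calls (4) became 2 with the DESeq2 Wald test, 2 with a mean count of at least 50 and 2 with halved counts. With a mean count of at least 50, macrophage calls (7) became 3, endothelial calls (7) became 4 and other globin calls (1) became 0, since fewer genes were tested. The log2 fold change of Aqp1 (-0.51) reversed to 0.0174 without anterior replicate 2, and was -1.37 without anterior replicate 1. With library size alone, 1257 genes were called higher and 1865 lower, against 1559 and 1792 with TMM. The median anterior replicate ratio of 2.46 ranged from 2.40 to 2.47 over the scalings and was 2.42 with a minimum of 100 counts.

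With a replicate block, 29 of the 31 erythroid genes were called, Add2 being added (edgeR adjusted p-value 0.0324), and 3586 of all genes. The numbers come only from the titles, and replicate differences in the 2 populations correlated at 0.0463 (Pearson) over genes. The depth limits Icam4 and Cldn13, with no central counts, to lower bounds. On all counts, not halved, the interval of the Hba-x share in central replicate 1 was 33.2% to 54.2%, above the anterior shares.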

Other observations

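Outside all the lists, 33 genes were called higher in the anterior cells with a log2 fold change of at least 3 and a mean of at least 1 CPM. Of these, 17 had an anterior replicate 2 to replicate 1 ratio of at least 2 and 11 had one under 1.2. The ratio lay within the range of the embryonic globins and Slc4a1 (2.51 to 2.62) for 3 genes, chosen on these same values. Cited4, a coactivator of the CITED family, measured 7.26 and 18.7 CPM in the anterior and 0.292 and 0.989 CPM in the central libraries (edgeR adjusted p-value 0.00108, log2 fold change 4.32 ± 0.58 SE). Grap2, an adaptor of blood cells, measured 3.72 and 9.72 CPM against 0.714 and 0.618 CPM (edgeR adjusted p-value 0.00187), and BC021767 measured 1.23 and 3.10 CPM against 0.0325 and 0.0618 CPM (0.00190).

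Named after their values were seen, the metal-binding metallothioneins Mt1 and Mt2 had ratios of 2.31 and 2.65, with log2 fold changes of 3.34 and 4.16. The water channel genes Aqp3 and Aqp8, also named after their values were seen, had ratios of 2.16 and 2.41, in contrast to the listed Aqp1. The limb patterning gene Msx1, named likewise and also at least 3 on the log2 scale, had a ratio of 1.06.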
